A study of Mus musculus with 14 samples.

Results

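The Cypt genes encode small basic proteins named cysteine-rich perinuclear theca proteins. The perinuclear theca is the dense shell that wraps the sperm nucleus, lies in part under the acrosome and is thought to carry factors that help activate the egg. Cypt transcripts are made in haploid germ cells, the spermatids, and Cypt1 was the founding member. The family was taken as every gene symbol of the deposited table that begins with Cypt followed by a number, which gave 6 of 25965 symbols. Cypt1, Cypt2, Cypt3 and Cypt15 lie on chromosome X, Cypt4 on chromosome 9 and Cypt12 on chromosome 3. All 6 passed the filter on low values in whole testis and in captured tissue.

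The genes were followed in 14 RNA-seq libraries from adult male mice that either carried the X-linked spermatid gene Tsga8 (Tsga8+/Y, called control) or lacked it (Tsga8-/Y, called knockout). Whole testis gave 3 libraries per genotype, made with a directional kit. Laser capture microdissection, which cuts chosen cells from a section, gave 2 libraries per genotype from round spermatids of steps 4-8 and 2 per genotype from a region that joined round spermatids of steps 1-3 with elongated spermatids of steps 9-16. The captured libraries were made with SMART-seq2, an amplification protocol for small RNA amounts that does not mark strand, so whole testis and captured levels are given side by side and were not tested against each other. The sources used here give neither strain nor exact age, nor do they say which captured libraries came from the same animal, so the p-values for captured tissue measure the spread between libraries, which may be technical.

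Depth ran from 30388531 to 49147347 reads for whole testis libraries and from 23467235 to 72022392 for captured ones. Replicates correlated across genes with Spearman coefficients of 0.987 to 0.992 and of 0.771 to 0.831, respectively. Tsga8 fell from 99.8 ± 9.72 to 2.64 ± 0.540 RPKM in whole testis (SD, n = 3; limma adjusted p = 3.05e-06) and was lower in every captured knockout library than in every captured control, as the labels state. The first control library of steps 1-3 and 9-16 stood apart. Its 8 markers of elongated spermatids, such as the protamines, summed to 92601 RPKM, against 19474 in the other control and 27716 and 11281 in the knockouts of that region. Results of that region are therefore given with and without it. The other control had Leydig cell markers at 84.3 RPKM, against 8.56 in the first and 2.07 and 24.2 in the knockouts. Its Sertoli cell markers summed to 75.0 RPKM, against 22.8 in the first and 55.7 and 69.9 in the knockouts. Spermatocyte markers summed to 207 to 428 RPKM in captured libraries and to 204 to 233 in whole testis. Which cells gave these reads was not tested.

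All 6 genes are compact and lie on the plus strand of the mm10 genome. Cypt1 spans chrX:16522869-16523689, Cypt2 spans chrX:105499772-105500639, Cypt3 spans chrX:153558593-153559429 and Cypt15 spans chrX:39346267-39346963, each with 2 exons. Cypt4 (chr9:24625185-24625827) and Cypt12 (chr3:17948444-17948952) have a single exon. The annotated transcripts are close relatives across chromosomes. Cypt3 and the autosomal Cypt4 agree at 92.6% of aligned bases, Cypt2 and Cypt4 at 91.8%, and Cypt1 and Cypt3 at 89.6%. Cypt12 is more distant, at 67.0% to Cypt1. Stretches of 50 bases shared exactly with another family transcript of the table made up 3.40% of Cypt3, 2.78% of Cypt2 and 1.55% of Cypt4, and none of Cypt1, Cypt12 or Cypt15. Of Cypt15, 13.8% of such stretches are shared with Cypt14, a relative on chromosome X that is 95.1% identical and not analysed here. Reads from such stretches could be assigned to either gene, so the values of Cypt15 in particular are uncertain.

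The likeness extends upstream of the genes, which is why the 120 bases before each start are shown. They come from RefSeq on build GRCm38.p6, where all 6 genes had an entry. The Y-linked zinc finger gene Zfy2 is added because its upstream region is known to resemble that of the Cypt genes. Capitals mark CCAAT (or ATTGG, the same letters on the other strand) and CCATTGTTC. These motifs were chosen after the sequences were seen.
Cypt1 (chrX:16522749-16522868, plus strand): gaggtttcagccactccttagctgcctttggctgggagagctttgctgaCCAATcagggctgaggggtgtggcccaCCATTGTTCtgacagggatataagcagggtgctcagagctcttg
Cypt2 (chrX:105499652-105499771, plus strand): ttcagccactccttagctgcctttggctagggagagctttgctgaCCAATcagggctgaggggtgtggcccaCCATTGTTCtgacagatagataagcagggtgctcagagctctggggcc
Cypt3 (chrX:153558473-153558592, plus strand): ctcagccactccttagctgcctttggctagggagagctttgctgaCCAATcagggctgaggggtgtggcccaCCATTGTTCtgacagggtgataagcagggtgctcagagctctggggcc
Cypt15 (chrX:39346146-39346265, plus strand): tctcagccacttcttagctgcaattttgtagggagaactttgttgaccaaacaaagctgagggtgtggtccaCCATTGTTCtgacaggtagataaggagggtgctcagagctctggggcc
Cypt4 (chr9:24625065-24625184, plus strand): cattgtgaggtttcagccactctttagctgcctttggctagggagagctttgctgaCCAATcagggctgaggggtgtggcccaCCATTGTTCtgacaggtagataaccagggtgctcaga
Cypt12 (chr3:17948324-17948443, plus strand): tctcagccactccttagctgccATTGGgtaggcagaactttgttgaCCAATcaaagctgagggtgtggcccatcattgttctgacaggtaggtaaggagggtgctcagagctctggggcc
Zfy2 (chrY:2170410-2170529, minus strand): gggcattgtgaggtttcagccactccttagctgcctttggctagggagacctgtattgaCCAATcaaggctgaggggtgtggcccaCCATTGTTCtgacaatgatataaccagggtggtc

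Over these windows Cypt1 was 96.5% identical to Cypt2, 96.5% to Cypt3, 96.5% to Cypt4, 87.8% to Cypt12, 86.1% to Cypt15 and 91.8% to Zfy2. CCAAT stood in the windows of Cypt1, Cypt2, Cypt3, Cypt4, Cypt12 and Zfy2, and these letters are not in the window of Cypt15. Of all 32851 RefSeq promoters, 21.3% hold it in the same window on either strand. CCATTGTTC stood in every window except that of Cypt12. Among all promoters 32 hold it (0.0974%), a count that includes the genes shown here. The motif was picked from these closely alike windows, so that share does not test it. Neither TATAAA (6.34% of promoters) nor the cyclic AMP response element TGACGTCA (1.24%) was found in any of the 7 windows on either strand. The X-linked Cypt1, Cypt2 and Cypt3 and the autosomal Cypt4 carry nearly the same bases at these positions. Over 250 bases before the start, Cypt1 was still 95.9% identical to Cypt2, 95.1% to Cypt4 and 94.2% to Zfy2, but 79.7% to Cypt3, and Cypt3 was 77.4% identical to Cypt4.

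In control testis the family was abundant in RPKM, with the autosomal members highest. In RPKM (reads per kilobase of gene span, scaled to library depth), Cypt12 averaged 364 ± 61.8 and Cypt4 270 ± 6.91 (SD, n = 3), which ranked them 14 and 24 among all 25965 genes. Cypt1 followed at 99.3 ± 17.2, then Cypt3 at 72.9 ± 8.48, Cypt2 at 40.4 ± 3.52 and Cypt15 at 10.9 ± 2.36. This order held in all 6 whole testis libraries, with gene span or with exon length as the divisor. Between neighbours, the control ranges of Cypt1 and Cypt3 overlapped, and in knockouts those of Cypt12 with Cypt4 and of Cypt3 with Cypt2. Together the 6 genes took 0.870% to 0.999% of all summed RPKM in control testis and 0.725% to 0.913% in knockout testis. Dividing by a span that includes introns lowers genes with long introns, so these ranks and percentages favour compact genes such as these.

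**Figure D1:**
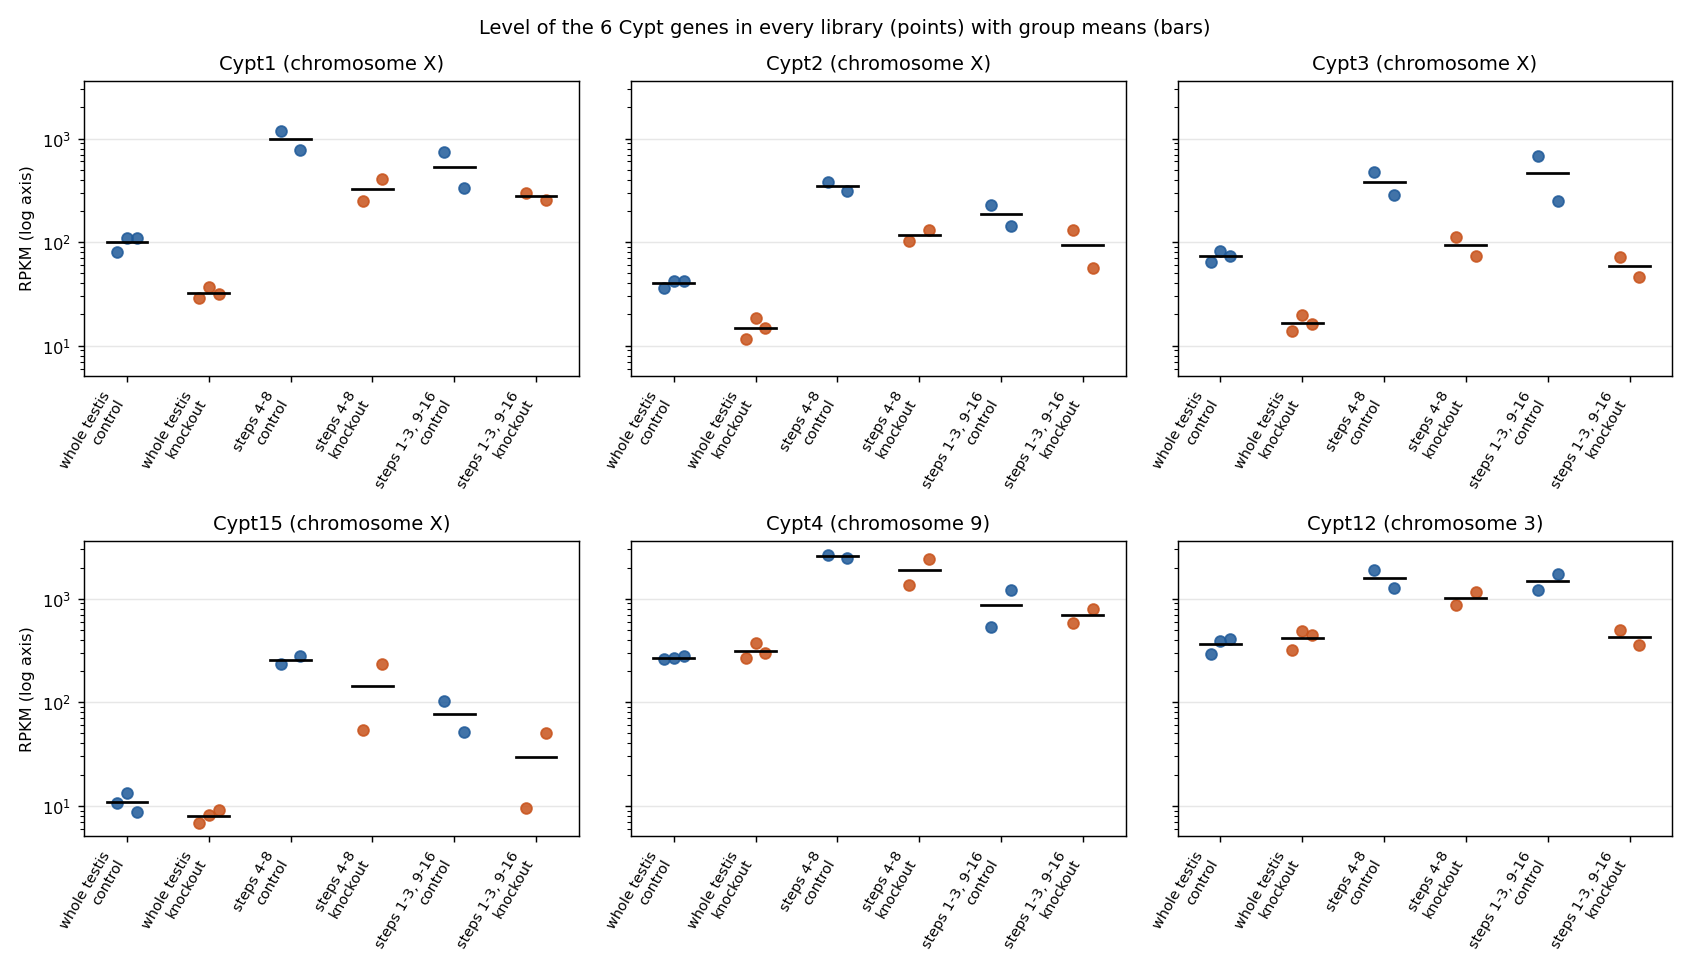
Level of each Cypt gene in RPKM (log axis) in every library, with blue points for control, orange points for knockout and a bar at each group's mean. In whole testis Cypt1, Cypt2 and Cypt3 were lower in all 3 knockout libraries than in any control, while the groups of Cypt15, Cypt4 and Cypt12 overlapped.

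In whole testis 3 X-linked members, Cypt1, Cypt2 and Cypt3, fell in the knockout to between 22.8% and 36.8% of their control means, and neither autosomal member passed the test in either direction. Cypt3, which kept the least, stood at 64.6, 81.5 and 72.6 RPKM in controls and at 13.9, 19.8 and 16.2 RPKM in knockouts. The lowest control was more than 3 times the highest knockout. On the log2(RPKM + 1) scale used for all tests, Cypt3 fell by 2.07 ± 0.14 (SE; limma adjusted p = 0.000369).

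Cypt1, the founding member, stood at 79.5, 108 and 110 RPKM in controls and at 28.7, 37.1 and 31.4 RPKM in knockouts. The groups were apart, and the knockout mean was 32.6% of the control mean. The log2 difference of Cypt1 was -1.58 ± 0.16 (limma adjusted p = 0.00249). Cypt2 stood at 36.4, 42.4 and 42.5 RPKM in controls and at 11.5, 18.4 and 14.7 RPKM in knockouts. These groups were apart as well, and Cypt2 fell by 1.40 ± 0.16 on the log2 scale (limma adjusted p = 0.00428). All 3 calls held under each of the 16 alternatives run, with the highest adjusted p at 0.0441 for Cypt2.

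Cypt15, the lowest member, stood at 10.7, 13.4 and 8.70 RPKM in controls and at 6.83, 8.16 and 9.08 RPKM in knockouts. The groups overlapped, with the third control below the third knockout. Its log2 difference of -0.39 ± 0.16 had a 95% interval from -0.75 to -0.034 and did not pass after adjustment (limma adjusted p = 0.144). That interval did not reach those of Cypt1 (-1.94 to -1.22), Cypt2 (-1.77 to -1.03) or Cypt3 (-2.41 to -1.74); the difference between members was not tested in the fit. Within a library, Cypt15 made 0.0790 to 0.135 RPKM per RPKM of Cypt1 in controls and 0.220 to 0.289 in knockouts. Cypt3 per Cypt1 went the other way, from 0.659 to 0.812 in controls down to 0.484 to 0.533 in knockouts.

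Cypt4 stood at 264, 269 and 278 RPKM in controls and at 267, 370 and 302 RPKM in knockouts. The groups overlapped, and the log2 difference was 0.20 ± 0.14 with a 95% interval of -0.13 to 0.53 (limma adjusted p = 0.375), or -0.037 after quantile normalization. Cypt12 stood at 293, 389 and 408 RPKM in controls and at 322, 491 and 446 RPKM in knockouts. Its groups overlapped too, with a log2 difference of 0.20 ± 0.20 and an interval of -0.26 to 0.66 (limma adjusted p = 0.520). Both genes were higher in the knockout between libraries of the same number, but the labels give no pairing. The share of all genes with that pattern was not counted, so it is not read as a result. Every knockout exceeded every control for 24.6% of the 8146 genes tested, which was not so for Cypt4 or Cypt12. With the replicate number as a block the difference was 0.20 ± 0.088 for Cypt12 (limma adjusted p = 0.174) and 0.20 ± 0.11 for Cypt4 (limma adjusted p = 0.253), and neither passed. Neither unblocked interval contained a fall as large as that of Cypt1, Cypt2 or Cypt3.

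**Figure D2:**
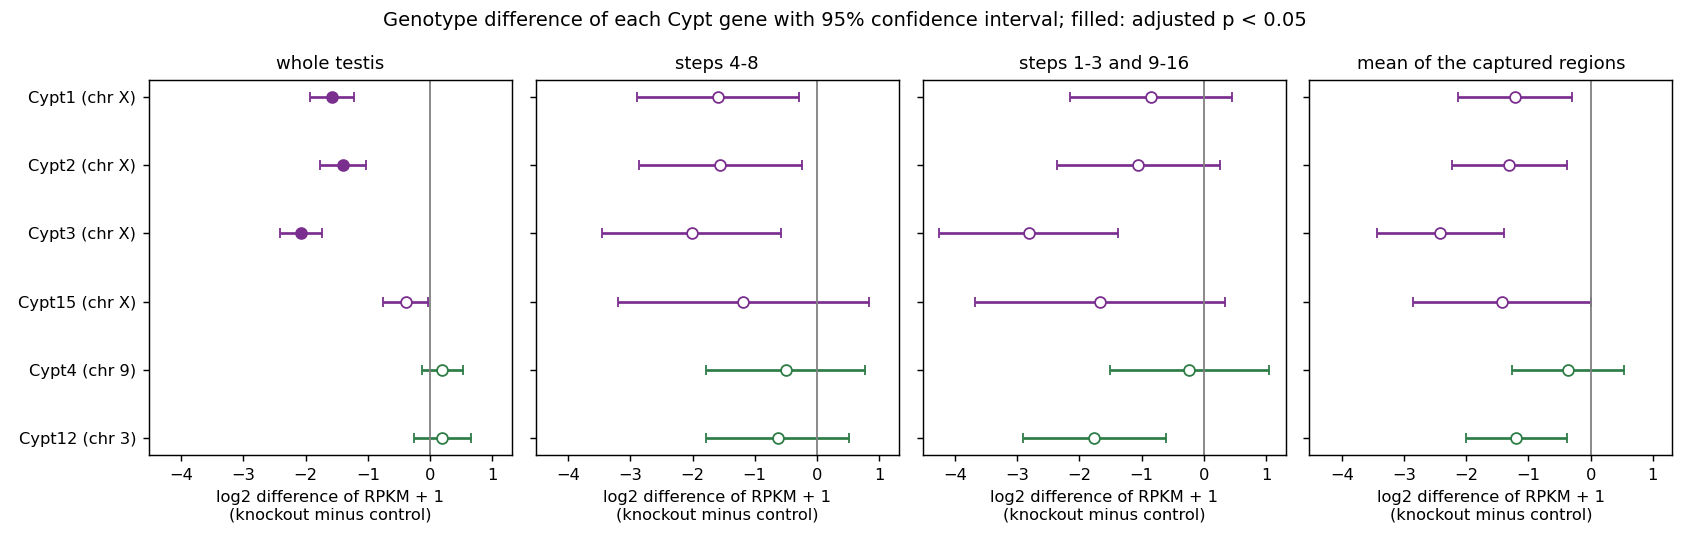
Difference between knockout and control in log2(RPKM + 1) for each Cypt gene, with 95% confidence intervals, in whole testis, in each captured region and over their mean. Filled points passed an adjusted p of 0.05, which only Cypt1 (-1.58), Cypt2 (-1.40) and Cypt3 (-2.07) in whole testis did.

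The count of 3 of 6 members called lower stood beside 2.04% of all 8146 genes tested in whole testis, with 4.11% called higher. With 1 library left out, 55 to 339 genes were called lower in place of 166, and the same 3 members each time. Groups were apart and lower for the same 3 members, for 8.24% of all genes and for 50.3% of X-linked genes. Of the 185 X-linked genes tested, 43.8% were called lower, and of genes off chromosome X, 1.07%. Among the 26 other X-linked genes at least as high in controls as Cypt15, 18 were lower, with a median difference of -1.08. The median over the 4 X-linked Cypt genes was -1.49 and over all X-linked genes -0.30. Among the 22 genes off chromosome X with a control level of at least that of Cypt4, none was called in either direction, and their median was 0.16, against 0.20 for Cypt4 and Cypt12 and 0.090 for all genes.

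In these bulk samples fewer cells of a type and less RNA per cell cannot be told apart. The 9 markers of round spermatids summed to 223 to 245 RPKM in control testis and 234 to 295 in knockout testis. The 8 markers of elongated spermatids summed to 7577 to 12338 and 6258 to 8715 RPKM. The 9 Sertoli cell markers summed to 123 to 178 RPKM in controls and 183 to 246 in knockouts. Every knockout sum was higher than every control sum, though narrowly for the lowest. The 5 Leydig cell markers summed to 85.1, 137 and 141 RPKM in controls and to 63.9, 271 and 352 RPKM in knockouts, which overlapped through the first knockout. In the same libraries the knockout means of Cypt4 and Cypt12 were 116% and 115% of their control means in RPKM, with overlapping groups and neither called. In captured tissue they were below control. Cypt4 stood at 73.6% in steps 4-8 and 79.6% in steps 1-3 and 9-16, and Cypt12 at 64.1% and 29.4%, none called. The part of the marker shifts in the Cypt differences was not tested.

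The make-up of the family within each library does not depend on how libraries were scaled. The X-linked members made up 25.5%, 27.2% and 25.4% of the summed Cypt RPKM in control testis and 9.38%, 8.84% and 8.71% in knockout testis. Cypt1 went from 11.5% to 4.06%, Cypt3 from 8.51% to 2.07% and Cypt2 from 4.72% to 1.84% of the sum. Cypt12 went from 42.2% to 52.0% and Cypt4 from 31.8% to 39.0%. The shares of these 5 genes did not overlap between genotypes. In an exact two-sided permutation test that gives p = 0.1, the smallest that 3 against 3 allows (0.12 after adjustment over the 6 genes). Shares add up to a whole, so the joint rise of Cypt12 and Cypt4 follows from the fall of the X-linked members. In RPKM the groups of Cypt12 and Cypt4 overlapped. The share of Cypt15 went from 1.29% to 1.01% with overlap (exact permutation p = 0.3). In RPKM the X-linked sum was 224 ± 28.7 in controls and 72.0 ± 11.3 in knockouts, and the autosomal sum 634 ± 67.8 and 733 ± 137.

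**Figure D3:**
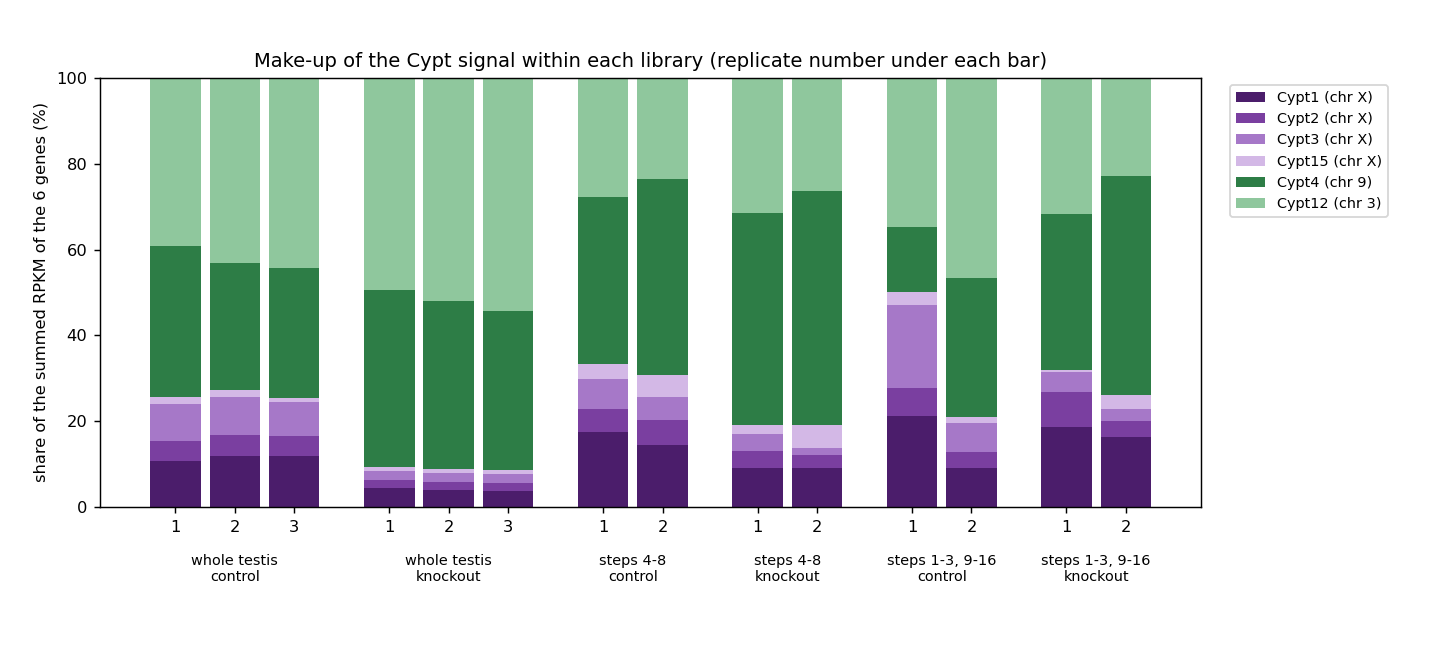
Share of the summed RPKM of the 6 Cypt genes (percent) taken by each gene in every library, with X-linked genes in purple and autosomal genes in green. The purple part was 25.4% to 27.2% in control testis and 8.71% to 9.38% in knockout testis, and it was less regular in the captured libraries of steps 1-3 and 9-16.

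In round spermatids of steps 4-8 the Cypt genes were among the highest of all in RPKM, again a measure that favours compact genes. Cypt4 led at 2570 ± 133 RPKM in controls (n = 2), which ranked it 6 among all genes, followed by Cypt12 at 1584 ± 446 and Cypt1 at 986 ± 287. That order of the first 3 held in all 4 libraries of the region. Cypt3 at 382 ± 135 and Cypt2 at 345 ± 44.7 RPKM overlapped in controls, and Cypt15 averaged 257 ± 34.8.

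Cypt1, Cypt2 and Cypt3 were lower in the knockouts of steps 4-8 by amounts near those of whole testis, but no member passed the test. Cypt1 stood at 1189 and 782 RPKM in controls and at 251 and 406 in knockouts. Cypt3 stood at 478 and 286 RPKM in controls and at 112 and 73.5 in knockouts. Cypt2 stood at 377 and 313 RPKM in controls and at 102 and 132 in knockouts. These 3 genes were lower in both knockouts than in either control, with log2 differences of -1.59 ± 0.58, -2.01 ± 0.64 and -1.56 ± 0.58.

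Cypt15 stood at 233 and 282 RPKM in controls and at 53.4 and 236 in knockouts, which overlapped. Cypt4 stood at 2664 and 2476 RPKM in controls and at 1353 and 2430 in knockouts, a narrow separation (-0.50 ± 0.57). Cypt12 stood at 1899 and 1268 RPKM in controls and at 860 and 1171 in knockouts (-0.63 ± 0.51). In all, 5 of 6 members were lower without overlap, as were 13.6% of all 7857 genes tested, 50.7% of X-linked genes and 12.6% of the rest. The limma adjusted p was 1.00 for each member, and none of the 7857 genes was called (0%), although 285 had an unadjusted p under 0.05.

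The X-linked share of the family in steps 4-8 was 33.3% and 30.8% in controls and 19.0% in each knockout. In the same libraries, which the labels give as round spermatids, the genes listed as elongated spermatid markers summed to 16123 and 18907 RPKM in controls. In knockouts they summed to 8722 and 8805. Which cells these reads came from was not tested. The 9 Sertoli markers summed to 10.6 to 35.4 RPKM in controls and 41.0 to 62.3 in knockouts. Of them, 4 were under 1 RPKM in both controls (Sox9, Wt1, Amh and Cldn11) and 3 in both knockouts (Sox9, Wt1 and Amh). The sums therefore rest mainly on the other markers of the list. Round spermatid markers were at 517 to 562 and 497 to 535 RPKM. The part of these shifts in the Cypt values was not tested.

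In the region of steps 1-3 and 9-16 the largest differences were those of Cypt3 and the autosomal Cypt12, with Cypt15 close behind (-1.67 ± 0.90). Cypt3 stood at 675 and 247 RPKM in controls and at 71.7 and 45.5 in knockouts (-2.82 ± 0.64, limma adjusted p = 0.297). Cypt12 stood at 1202 and 1733 RPKM in controls and at 504 and 357 in knockouts (-1.76 ± 0.51, limma adjusted p = 0.498). Both groups of each gene were apart, but neither difference passed after adjustment. Without the first control, the log2 differences were -2.09 for Cypt3 (adjusted p = 0.334) and -2.03 for Cypt12 (adjusted p = 0.277).

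Cypt1 stood at 735 and 335 RPKM in controls and at 296 and 257 in knockouts (-0.85 ± 0.58, and -0.28 without the first control). Cypt2 stood at 226 and 143 RPKM in controls and at 132 and 56.2 in knockouts (-1.05 ± 0.58, and -0.72 without it). Cypt15 stood at 102 and 51.7 RPKM in controls and at 9.43 and 50.3 in knockouts (-1.67 ± 0.90, and -1.19 without it). The first control was the higher of the pair for all 4 X-linked members and the lower for both autosomal ones. Cypt4 stood at 531 and 1201 RPKM in controls and at 578 and 802 in knockouts, which overlapped (-0.23 ± 0.57, and -0.82 without it).

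Groups did not overlap for 5 of 6 members in this region, all lower, as for 15.7% of all genes tested, 31.5% of X-linked genes and 15.3% of the rest. None of the 7857 genes was called (0%), and 525 had an unadjusted p under 0.05. The X-linked share was 50.1% and 20.9% in controls and 32.0% and 26.1% in knockouts, so the shares overlapped.

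Averaged over both captured regions, with 4 libraries per genotype, the log2 difference was -2.42 ± 0.45 for Cypt3 (limma adjusted p = 0.166), -1.43 ± 0.63 for Cypt15, -1.31 ± 0.41 for Cypt2, -1.22 ± 0.41 for Cypt1, -1.20 ± 0.36 for Cypt12 and -0.37 ± 0.40 for Cypt4. None of the 6 was called, beside 8 genes called lower (0.102% of all and 3.76% of X-linked genes), all X-linked, Tsga8 among them. Cypt3 did pass under a common sum of RPKM per library (-2.20, adjusted p = 0.0462) and under quantile normalization (-2.36, adjusted p = 0.0346). Without the first control of steps 1-3 and 9-16, Cypt3 stood at -2.05 (adjusted p = 0.302) and 1 gene was called lower, and without any other single captured library 0 were. In every captured control library Cypt2, Cypt3 and Cypt12 exceeded every knockout library of both regions. So did 1.72% of all genes, 16% of X-linked genes and 1.32% of genes off chromosome X.

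The genotype difference itself was not shown to differ between the regions. The limma interaction term had an adjusted p of 1.00 for all 6 members, and its values ran from -0.75 ± 0.82 for Cypt1 to 1.13 ± 0.72 for Cypt12. None of the 7857 genes was called for it (0%), with 223 at an unadjusted p under 0.05. For Cypt12 the 95% interval ran from -0.49 to 2.76. Without the first control of steps 1-3 and 9-16 the interaction was -1.31 for Cypt1 (adjusted p = 0.903), 1.40 for Cypt12 (adjusted p = 0.901), -0.83 for Cypt2, 0.081 for Cypt3, 0.0084 for Cypt15 and 0.32 for Cypt4, and none of the 6 passed.

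Between the regions of control mice, Cypt4 was higher in steps 4-8 by 1.68 ± 0.57 on the log2 scale (limma adjusted p = 0.398) and Cypt15 by 1.80 ± 0.90 (adjusted p = 0.495), neither past the test. Cypt1 (0.96 ± 0.58) and Cypt2 (0.93 ± 0.58) were also higher in both libraries, as were 20.6% of all genes. Cypt12 (0.10 ± 0.51) and Cypt3 (-0.14 ± 0.64) overlapped. In knockouts Cypt15 (2.29 ± 0.90), Cypt4 (1.41 ± 0.57), Cypt12 (1.24 ± 0.51) and Cypt3 (0.66 ± 0.64) were higher in both libraries of steps 4-8, as were 20.9% of all genes. No gene was called in either comparison (0%), with 832 and 816 at an unadjusted p under 0.05. Without the first control of steps 1-3 and 9-16, the control difference was 1.10 for Cypt4, 2.29 for Cypt15, 1.52 for Cypt1 and 1.26 for Cypt2, and that of Cypt3 turned to 0.58 and that of Cypt12 to -0.16.

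Cypt4 lies within the span of Dpy19l2, on the opposite strand. Dpy19l2 encodes a nuclear envelope protein that anchors the acrosome. The sources used here do not say whether reads were counted by strand, and SMART-seq2 marks none, so reads of Cypt4 could be counted for Dpy19l2 as well. In whole testis 1.90 to 2.43 reads were assigned to Dpy19l2 for each read of Cypt4, and in captured tissue 1.03 to 1.47. Dpy19l2 was also the gene most like Cypt4 in its pattern, with a Pearson r of 0.97 over the 14 libraries after the mean of each tissue was subtracted. How far shared reads enter this likeness was not tested, so it is uncertain.

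**Figure D4:**
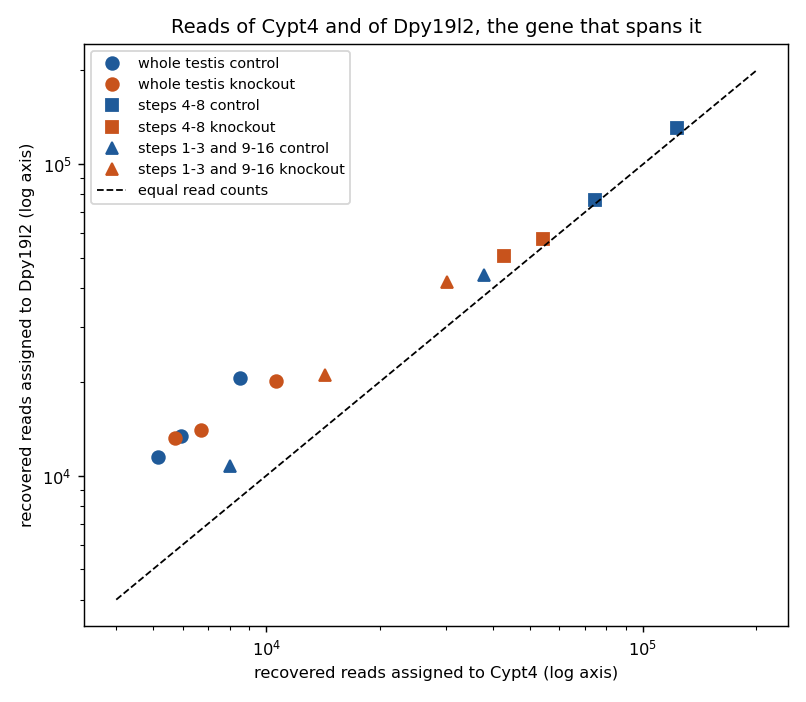
Recovered reads assigned to Dpy19l2 (vertical, log axis) against those assigned to Cypt4 (horizontal, log axis), one point per library. All 14 points lie above the dashed line of equal reads, close to it in captured tissue (1.03 to 1.47 reads per Cypt4 read) and farther from it in whole testis (1.90 to 2.43).

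By the same measure over 6472 genes, Cypt1 and Cypt2 varied together (r = 0.94), as did Cypt2 and Cypt3 (0.92) and Cypt1 and Cypt3 (0.89). The genes outside the family most like these 3 all lay on chromosome X. They were Gm614, 1700084M14Rik and Gm6760 for Cypt1 (0.93, 0.93 and 0.92), 1700084M14Rik, 1700010D01Rik and 1700003E24Rik for Cypt2 (0.98, 0.96 and 0.95), and Tspan6, Gm614 and Gm20489 for Cypt3 (each 0.97). Cypt4 had values of 0.065, 0.071 and -0.0094 to Cypt1, Cypt2 and Cypt3, although its transcript and the 120 bases upstream are close to theirs. Cypt15 was most like Snrnp40, BC048507 and Prss51 (0.94, 0.94 and 0.93), all autosomal, and reached 0.43 to 0.57 with the other members. Cypt12 was most like 1700080N15Rik, Rnpepl1 and Bscl2 (0.94, 0.91 and 0.91). Genotype was not subtracted, so genes that fell in the knockout are alike through that fall. In whole testis 43.8% of X-linked genes were called lower, against 1.07% of the rest. The likeness of Cypt1, Cypt2 and Cypt3 to each other and to X-linked genes can therefore restate the genotype result. The coefficients describe libraries that share kits and genotypes and carry no test.

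Zfy2, the Y-linked gene with the related upstream bases shown above, was under the filter because its long span gives a low RPKM. It had 310, 538 and 293 reads in control testis and 113, 120 and 99 reads in knockout testis, or 0.156 ± 0.017 and 0.046 ± 0.006 RPKM. The knockout libraries were all below the controls. On recovered reads, limma voom gave a log2 difference of -1.76 ± 0.18 (adjusted p = 0.000467), an alternative added after the data were seen. In steps 4-8 Zfy2 had 1571 and 862 reads in controls and 344 and 285 in knockouts. In steps 1-3 and 9-16 it had 17 and 1009 reads in controls and 18 and 148 in knockouts, which overlapped. Zfy2 passed in neither captured region (limma voom adjusted p = 0.999 in each). Its close copy Zfy1 had 173, 273 and 155 reads in control and 130, 78 and 87 in knockout testis (-1.07 ± 0.26, limma voom adjusted p = 0.0249), and without the filter it did not pass (adjusted p = 0.110). Reads could be split between the copies, so the value of each is uncertain.

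Other genes of the perinuclear theca and its inner skeleton, the calyx, were examined beside the family. Of 17 listed genes 16 were in the table and tested, and in whole testis 2 were called lower and 0 higher, with a median of 0.18, beside 2.04% of all genes called lower and a median of 0.090. Both called genes lie on chromosome X, where 43.8% of genes were called lower. Cylc1, which encodes the calyx protein cylicin, fell from 3.94 ± 1.22 to 1.22 ± 0.186 RPKM (-1.13 ± 0.16, limma adjusted p = 0.0112). Actrt1, which encodes a relative of actin found in the sperm head, fell from between 9.88 and 13.8 RPKM in controls to between 2.95 and 4.51 RPKM (-1.47 ± 0.15, limma adjusted p = 0.00298). Among the autosomal ones nearest to the threshold were the glutathione transferase Gsto2 (0.40 ± 0.10, adjusted p = 0.0583), the calyx protein gene Ccin (0.53 ± 0.19, adjusted p = 0.126), Wbp2nl (0.40 ± 0.15, adjusted p = 0.132), a candidate egg-activating factor, and Capza3 (0.33 ± 0.15, adjusted p = 0.183), an actin-capping subunit of sperm. In captured tissue limma called none of the 16 in any comparison (0.102% of genes were called lower over the mean of both regions).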

How the data were processed

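RNA-seq values of 14 libraries were used, grouped by the labels' tissue and genotype. The authors deposited 1 table of log2 RPKM values. The submitters' processing notes name FastQC, Trim Galore 0.4.0, HISAT2 2.1.0 and the mm10 build. How reads were counted per gene, and whether by strand, is not stated in these sources. The tests had been planned for RPKM, to which the deposited log2 values were converted first. The length behind them was the gene span, and genes at 0 reads had been entered as 0.9 read. Whole reads were recovered for 99.87% of values to within 0.05 read, and for 100% of those under 1000 reads.

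Genotypes were compared with limma 3.58.1 (R 4.3.3, trend, two-sided) on log2(RPKM + 1), which understates changes of low genes, with Benjamini-Hochberg adjustment over all genes tested and a threshold of 0.05. Whole testis had its own fit over the 8146 genes that reached RPKM 1 in at least 3 of its libraries. Captured tissue had a joint fit of 8 libraries in 4 groups, over the 7857 genes that reached RPKM 1 in at least 2 of them. Tested on simulated data, the whole testis fit called 100% of genes changed 2-fold, and the captured average called 0% of those changed 2-fold and 7% of those changed 4-fold, so a missed call there says little. Same-numbered whole testis libraries deviated together (r = 0.344, 0.385 and 0.179 for numbers 1, 2 and 3), but control 3 did so more with knockout 2 (0.305). The labels give no pairing and that check did not settle one. The replicate number was used as a block only in an alternative. Captured libraries were not treated as paired (0.050 and 0.0999). Replicates differed by more than sampling noise (chi-square per gene 10.9 to 557.5). Named genes were all Cypt members, Tsga8, Zfy1, Zfy2, listed theca genes with the smallest adjusted p, and for each member the 3 genes most alike over libraries, besides cell type markers from a list and the relative Cypt14, named for its likeness to Cypt15. The members, lists and tests were chosen with earlier results of these data known. Sequences and motif matches used RefSeq promoters (GRCm38.p6), and transcript identities the GENCODE M21 annotation. Alternatives covered pseudocount, filter, scaling, a replicate block, limma voom on recovered reads, length and left-out libraries.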

Additional observations from a re-analysis of the deposited data

How the results depend on the processing

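In whole testis the number of Cypt genes called stayed at 3 under all 16 alternatives, the replicate block included, and the same genes (Cypt1, Cypt2 and Cypt3) were called. The number of all genes called lower there was 166 and moved to 50 with a mean RPKM of at least 5, 310 with median centring, 1363 with limma voom, 672 without replicate 1 of both genotypes and 229 under the replicate block, and ranged from 55 to 339 with 1 library left out. For the average over captured regions, 8 genes were called lower, against 5 at a pseudocount of 0.1, 0 with no filter, 0 under the replicate block, 0 with limma voom, 13 after quantile normalization and 0 to 1 with 1 library left out; the number of Cypt genes called there was 1 under a common sum and 1 under quantile normalization, both Cypt3 (-2.20 and -2.36). In steps 4-8 the genes called lower were 1 with median centring and 1 under the filter on mean RPKM. The region difference in knockouts called 0 to 8 genes with 1 library left out, 8 of them without knockout 2 of steps 4-8. The captured fits with 1 library left out tested more genes, since the filter then asked for fewer libraries, and assume that a lone library varies like the others.

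Reversed signs were all of values that did not pass the test. Cypt4 turned to -0.037 in whole testis and 0.11 in steps 4-8 under quantile normalization, and in steps 1-3 and 9-16 to 0.030 under a common sum, with -0.82 to 0.36 over left-out libraries. For the difference between regions Cypt4 was 0.24 under quantile normalization, and left-out libraries gave -0.86 to 0.32 for Cypt4, -0.66 to 1.64 for Cypt15 and -1.11 to 0.10 for Cypt2. Between regions in controls Cypt3 was 0.086 under a common sum and ranged from -0.87 to 0.58, and Cypt12 from -0.19 to 0.40. Between regions in knockouts the replicate block gave -0.15 for Cypt1 and -0.067 for Cypt2, and left-out libraries -0.14 to 0.56 and -0.18 to 1.03. The block changed no other sign or call of a Cypt gene. Shares computed from reads differed between genotypes by -9.25 points for Cypt1, -3.75 for Cypt2, -8.28 for Cypt3 and 10.4 for Cypt4, and with exon length, an alternative added after the data were seen, by -8.53, -3.36 and -7.59 for Cypt1, Cypt2 and Cypt3. These versions of the shares rest on the same reads and differ only in the length used as divisor (gene span, none or exon length). Each member had at least 254 reads in every captured library, but these come from amplified RNA without molecular identifiers, so the number of molecules behind them is unknown.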
